A study of Macaca fascicularis with 5 samples.

Results

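Voltage-gated sodium channels, high-voltage calcium channels and their partner subunits were followed in the dorsal lateral geniculate nucleus (dLGN) of young cynomolgus monkeys. The set was a list of 31 gene symbols, matched by name in the deposited table of transcripts and summed per symbol, and T-type calcium channels were not part of it. Of the 31 symbols, 27 had rows in the table (109 of 62655 transcripts, 27 of 20576 symbols). The sodium channel genes SCN1A and SCN2A and the calcium channel genes CACNA1B and CACNA1C had no rows under these names and were not analysed here. RNA was sequenced from 5 monkeys, with 1 library per animal. By the labels, the control group was 3 untreated monkeys (libraries Control-307, then Control-317, then Control-331), and the deprived group was the left dLGN of 2 monkeys whose left eye had been sutured (Deprivated-316 and Deprivated-326). All animals are labelled as 3 months old, with the suture in place from 1 month of age, whereas the methods of the study place the collection 3 months after the suture. Values per library always follow the order in which the libraries are named here. The titles give Control-317 and both deprived libraries as left and Control-307 and Control-331 as right, but by their descriptions the control libraries pool the nuclei of both sides.

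Sodium channels carry the upstroke of the action potential. Each has a large pore-forming alpha subunit and smaller beta subunits that set its gating and its place in the membrane. High-voltage calcium channels open at strong depolarization and trigger transmitter release, dendritic calcium entry and gene expression. Their pore subunit is carried to the membrane and tuned by a cytoplasmic beta subunit and an extracellular alpha2delta subunit. NALCN is a sodium leak channel that helps to set the resting potential, and the FGF homologous factors FGF12, FGF13 and FGF14 are intracellular proteins that bind sodium channel tails. In thalamic relay neurons these channels shape the tonic firing that passes retinal signals to the cortex.

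The control libraries totalled 9424975 to 12966019 estimated counts, and the totals were 7607859 and 7391844 in the deprived group. Control-317 stood apart. Over the 14317 tested genes (not independent of each other), its log2 CPM (counts scaled to the normalized library size) correlated with those of Control-307 and Control-331 at r = 0.849 and 0.872, whereas these correlated with each other at 0.952. Tissue markers differed between libraries too. The mean of 10 striatal markers was 8.64, 4.38 and 8.50 log2 CPM in the control group against 6.93 and 6.52 in the deprived group, and 10 markers of thalamic relay neurons, the cells of the dLGN itself, had 3.85, 6.57, 4.87, 5.17 and 6.20 in the same order. The group means printed in a supplementary table of the study follow another division of the libraries than the labels, with Control-317 and Deprivated-316 exchanged. This held for all 310 transcripts whose means could be read, and the division by the labels gave the means of 20 of them. Neither the files nor the text of the study say which division is right, so all comparisons were made by the labels. Values under the other division or without Control-317 are given where a call, a direction or a count of called genes turns on them. Cell markers and counts of genes without overlap were compared by the labels, with all 5 libraries, and such counts change without Control-317. Without Control-317 the control libraries are both titled right and the deprived ones left, so that side and condition cannot be told apart.

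By the labels, the listed genes together took a larger part of the sequenced RNA in the deprived libraries, but not with Control-317 and Deprivated-316 exchanged. Their summed counts were 0.233%, 0.223% and 0.234% of the library in the control group and 0.305% and 0.273% in the deprived group. Both deprived values lay above every control value. Under the exchange the groups overlapped, with means of 0.257% for control and 0.248% for deprived, against 0.230% and 0.289% by the labels. Of the 27 genes, 20 passed edgeR's filter on low counts and were tested. By the labels, calcium channel genes made up most of what was higher. Of 10 tested calcium channel genes 7 had a positive log2 fold change (deprived minus control), against 2 of 6 tested sodium channel genes and 44.9% of all genes tested. With Control-317 and Deprivated-316 exchanged, CACNB1 and CACNB3 turned to -0.57 and -0.63. Among sodium channel genes SCN3A then turned to -0.42 and SCN2B to 0.36. The 6 genes with an unadjusted p under 0.05 were CACNA1D, CACNA1E, CACNB1, CACNB3, CACNA2D1 and FGF12. In each of them both deprived libraries exceeded every control library. Deprivated-316 exceeded Deprivated-326 in all 6, as it did in 16 of the 20 tested genes.

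No listed gene passed edgeR's quasi-likelihood test with Benjamini-Hochberg adjustment over all genes (0 of 20, against 0% of the 14317 genes tested). An unadjusted p under 0.05 was reached by 6 of 20, all higher, where 5.69% of all genes tested were higher and 4.07% lower at that p. Either way, 9.76% of all genes had such a p. The adjusted count was 1 of 20, higher, in edgeR's exact test (1.59% of all genes called, 1.38% as higher), 2, both higher, in DESeq2 (2.14%, with 1.69% higher and 0.443% lower) and 0 in limma on log2(FPKM + 1) (0.00656%). The groups did not overlap in CPM for 7 higher and 1 lower gene of the 20, where 15.2% of all genes were higher and 15.5% lower without overlap. The median log2 fold change was 0.27 over the 20 genes and -0.06 over all genes tested, and 12 of the 20 were positive, where 44.9% of all genes were. For any 1 gene, the smallest two-sided p of an exact permutation test with these group sizes is 0.2.

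These counts turned on single libraries. Without Control-331, CACNB3 and FGF12 had unadjusted p-values of 0.0871 and 0.0652 in edgeR's quasi-likelihood test. Without Deprivated-316, the log2 fold changes of CACNA1D, CACNA1E, CACNB1, CACNB3, CACNA2D1 and FGF12 were lower, at 0.80, 0.78, 0.84, 0.59, 1.43 and 0.68. The adjusted count turned on Control-317. Without it edgeR's quasi-likelihood test called 6 of 20 genes, namely CACNA1D, CACNA1E, CACNA2D1, FGF12 and SCN8A as higher and SCN4B as lower, where 10.1% of all genes were called, 6.46% as higher and 3.68% as lower. With the side of the title as a term, which leaves Control-317 alone against both deprived libraries, CACNA2D1, CACNB1, FGF12 and FGF13 were called higher (4 of 20, against 5.43% of all genes, 3.97% higher and 1.45% lower). With Control-317 and Deprivated-316 exchanged, 0 of 20 were called (0% of all genes), 2 had an unadjusted p under 0.05, both lower (7.03% of all genes, 2.95% as lower), and the median turned to -0.26. These 2 were CACNA2D3 and CACNA1A. For CACNA1A the exchange puts both libraries listed at 0 in the deprived group, so its p shows little.

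**Figure D1:**
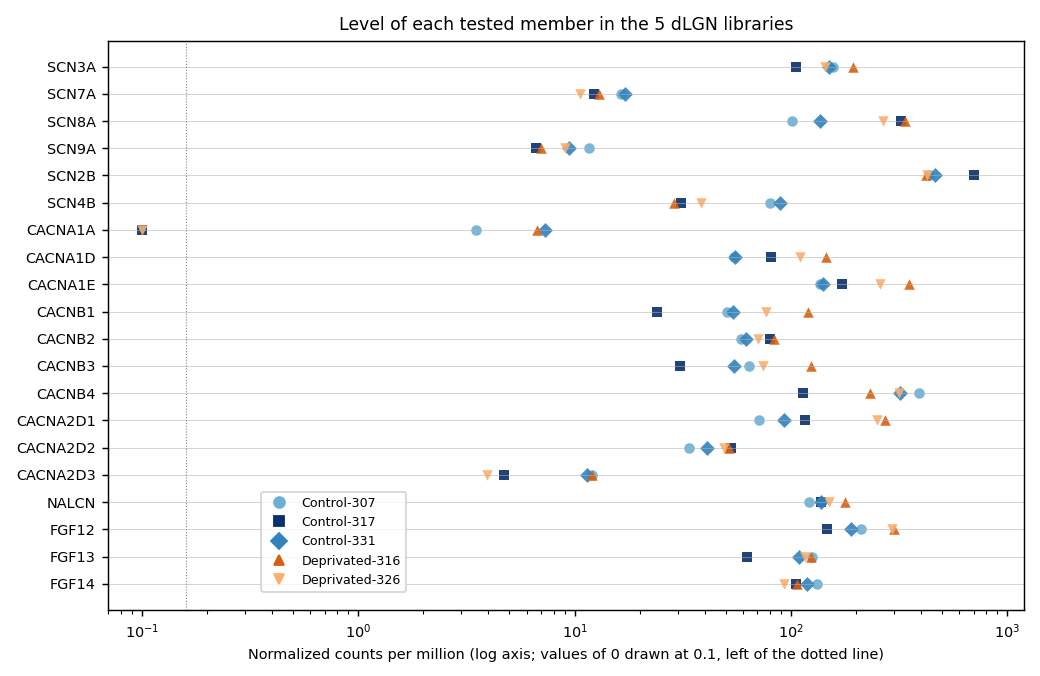
CPM (log axis) of the 20 tested genes in each of the 5 libraries, blue for control and orange for deprived. CACNA1D, CACNA1E, CACNB1, CACNB3, CACNA2D1, NALCN and FGF12 have both deprived libraries to the right of all control libraries.

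By the labels, several lists of markers of other cells and regions differed between the groups. Excitatory neuron markers of cortex and hippocampus (10 genes) averaged 0.92, 0.27 and 1.19 log2 CPM in control and 5.44 and 3.96 in deprived tissue. The summed level of this list ran from 142 to 277 CPM in the control group and was 798 and 475 CPM in the deprived one. All 9 tested members were on the higher side, 6 of them without overlap (15.2% of all genes). EMX1, NEUROD2, NEUROD6 and SLC17A7 passed the filter on low counts only with the deprived libraries, so their direction tells little. NRGN, CUX2 and NEUROD1 overlapped. NRGN had 108, 31.5 and 181 CPM in the control group against 139 and 86.3 CPM in the deprived group. TBR1 and EMX1 were at or near 0 in the control libraries, at 0.4 to 2.5 and 0 to 0.2 CPM. In the deprived ones they had 98.4 and 49.96 CPM, and 30.0 and 13.9 CPM. Of 10 pan-neuronal markers 7 were on the higher side, with means of 7.08, 8.23 and 7.28 log2 CPM in the control group against 8.28 and 8.34 in the deprived group. Oligodendrocyte, microglia and endothelial and mural markers were on the lower side for 10 of 10, 9 of 9 and 8 of 8 tested members. Of these, 4, 6 and 7 did not overlap, where 15.5% of all genes were lower without overlap. Astrocyte markers were on the lower side for 6 of 8 and oligodendrocyte precursor markers for 4 of 6. Inhibitory neuron markers were on the higher side for 4 of 7. Among these markers VIP, higher, passed the filter only with the deprived libraries, and GAD1, lower, only with control libraries, so their directions tell little. All these directions are by the labels. With Control-317 and Deprivated-316 exchanged, the means of the excitatory list overlap, since Control-317 had the lowest and Deprivated-316 the highest. The part of these cell types in the channel values was not tested, and in bulk RNA fewer cells of a type and less RNA per cell cannot be told apart.

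**Figure D2:**
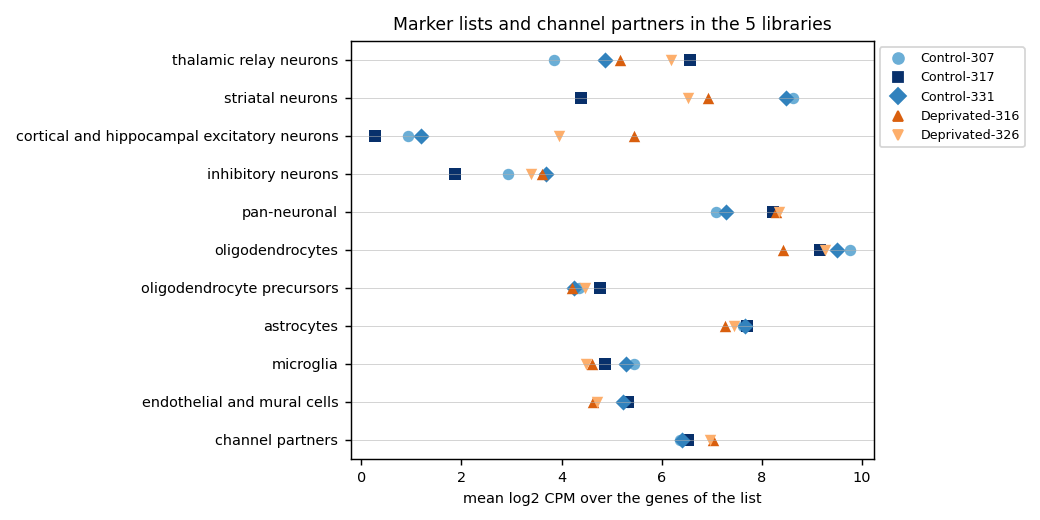
Mean log2 CPM of each marker list, and of a list of channel partners, in the 5 libraries (blue, control; orange, deprived). Excitatory cortical markers lie higher in both deprived libraries than in any control library, and striatal and relay markers place Control-317 at the opposite end from Control-307 and Control-331.

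Among the sodium channel pore subunits with rows, SCN8A and SCN3A made up nearly all of the signal. SCN1A and SCN2A had no rows, so all shares of the pore subunits leave them out. Per length, in FPKM (fragments scaled to transcript length and library size), SCN8A, the main subunit of mature axon initial segments and nodes, averaged 16.8 over the 5 libraries and SCN3A, a subunit known for its high level in the fetal and early postnatal brain, averaged 12.4. SCN8A had 101, 324 and 136 CPM in the control group against 337 and 266 CPM in the deprived group. Control-317 lay between the deprived libraries, so the groups overlapped (log2 fold change 0.69 with a standard error of 0.53, edgeR adjusted p = 0.708). Without Control-317 the log2 fold change of SCN8A was 1.35 (edgeR adjusted p = 0.0269, the smallest over 15 alternatives, whose largest was 1.00), and with side as a term it was -0.11. SCN3A had 157, 105 and 149 CPM in the control group against 194 and 144 CPM in the deprived group, with overlap. The balance of both subunits differed between libraries rather than groups. SCN8A held 31.9%, 70.3% and 40.2% of the FPKM of the pore subunits in the control group and 55.9% and 58.5% in the deprived libraries, and SCN3A held 57.9%, 25.4%, 50.7%, 40.1% and 36.5% in the same order. Control-317, the library with the highest SCN8A share and the lowest SCN3A share, also had the highest mean of the relay markers. The list was not uniform, since PRKCD had 51.5, 10.1 and 50.7 CPM in the control group against 37.3 and 15.3 CPM in the deprived group. A link of the shares to relay neurons was not tested.

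The other sodium channel pore subunits were low. SCN7A, an atypical channel that responds to sodium level more than to voltage and is known from glia, ran from 10.6 to 17.0 CPM. SCN9A, best known from pain-sensing neurons, ran from 6.64 to 11.7 CPM. Both had negative log2 fold changes, of -0.36 and -0.21, with overlapping groups. SCN4A, the skeletal muscle channel, reached at most 5 counts in a library, and SCN10A and SCN11A, channels of peripheral sensory neurons, at most 2 counts. A floor of 3 counts corresponds to 0.231 to 0.406 CPM of the unnormalized library total, so these 3 genes lay at about the limit of detection at this depth. Lists of skeletal muscle and of photoreceptor and sensory neuron markers were also low, with summed levels of 1.88 to 3.96 CPM and, for the second, of 5.76 to 8.42 CPM in the control group against 18.5 and 16.4 CPM in the deprived group.

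The sodium channel beta subunits went the other way. SCN2B, a beta subunit linked to the alpha subunit by a disulfide bond, had the highest FPKM of all listed genes when averaged over the 5 libraries, at 60.8, which Control-317 raised with 87.9. In Control-307 and Control-331 SCN4B was higher per length, at 57.2 and 66.1 FPKM against 54.3 and 59.5 for SCN2B. SCN2B had 437, 701 and 462 CPM in the control group against 422 and 426 CPM in the deprived group. All control values exceeded both deprived ones, but Control-307 by little, and the difference of SCN2B was within the spread (log2 fold change -0.33 with a standard error of 0.28, edgeR adjusted p = 0.745). It turned to 0.36 with Control-317 and Deprivated-316 exchanged. SCN4B, a beta subunit that takes part in resurgent sodium current, had 80.0, 31.1 and 89.1 CPM in the control group against 28.7 and 38.5 CPM in the deprived group. Here Control-317 lay with the deprived libraries and apart from the other control libraries (log2 fold change -0.99 with a standard error of 0.50, edgeR adjusted p = 0.579). Without Control-317 the log2 fold change of SCN4B was -1.33 (edgeR adjusted p = 0.0257, the smallest over 15 alternatives, whose largest was 1.00), and with side as a term it was 0.11. The summed striatal markers were also lowest in Control-317, at 387 CPM, and highest in the other control libraries, at 6892 and 6245 CPM, and their part in the SCN4B values was not tested. SCN3B was listed at 0 in every library. The interneuron marker PVALB and the oligodendrocyte lineage marker OLIG1 were also listed at 0 throughout, so a 0 in this table may be a failed estimate.

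**Figure D3:**
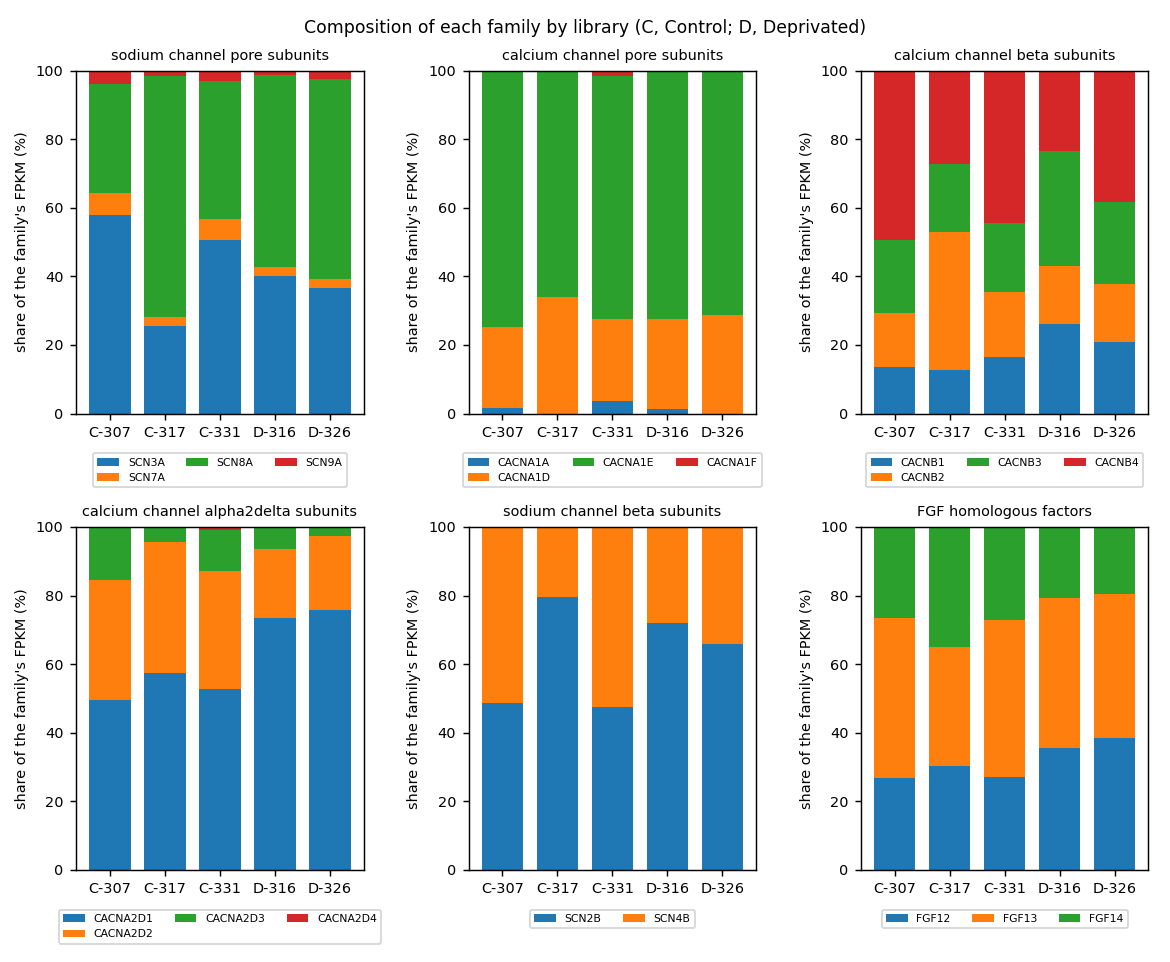
Share of each family's summed FPKM by gene in the 5 libraries (stacked bars, percent), over genes with rows only, so without SCN1A, SCN2A, CACNA1B and CACNA1C. CACNA2D1 takes a larger share of the alpha2delta subunits in both deprived libraries than in any control library, and SCN8A and SCN2B take their largest shares in Control-317.

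Among the calcium channel pore subunits with rows, both abundant ones were higher in the deprived libraries. Summed over the family without CACNA1B and CACNA1C, which had no rows, FPKM were 16.8, 18.8 and 17.4 in the control group against 39.4 and 28.7 in the deprived group. CACNA1E, the pore of R-type channels of dendrites and axon terminals, had 137, 172 and 141 CPM in the control group against 352 and 258 CPM in the deprived group. In FPKM its control values were nearly equal, at 12.5, 12.3 and 12.3, with 28.4 and 20.4 in the deprived libraries (log2 fold change of CPM 1.02 with a standard error of 0.23, edgeR adjusted p = 0.350). CACNA1D, an L-type channel that opens at less strong depolarization than its relatives and links activity to gene expression, had 54.8, 81.1 and 55.2 CPM in the control group against 146 and 111 CPM in the deprived group (log2 fold change 1.01 with a standard error of 0.27, edgeR adjusted p = 0.389). The order of libraries was the same in both genes, with Control-317 the highest control library. Both kept a positive log2 fold change under all 15 alternatives, down to 0.03 for CACNA1E and 0.17 for CACNA1D with Control-317 and Deprivated-316 exchanged. CACNA1E was called by DESeq2 (adjusted p = 0.0222, against up to 1.00 over the alternatives), and both genes without Control-317.

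CACNA1A, the pore of P/Q-type channels of synaptic terminals, had only 1 transcript in the table. It was listed at 33.9, 0 and 75.9 counts in the control group and at 49.6 and 0 counts in the deprived group. With 1 library of each group at 0, its fitted fold change has a standard error of 2.03 on the log2 scale and shows nothing about the groups. With Control-317 and Deprivated-316 exchanged, both zeros fall in the deprived group, and the fitted value of CACNA1A is set by them. CACNA1F, the L-type channel of photoreceptors, and CACNA1S, that of skeletal muscle, were not tested, with at most 26.4 and 5.10 counts in a library.

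The calcium channel beta subunits differed among themselves. CACNB1, known from skeletal muscle and also present in neurons, had 50.8, 24.1 and 54.1 CPM in the control group against 120 and 77.0 CPM in the deprived group. CACNB3, a beta subunit of many neuronal channels, had 64.3, 30.6 and 54.3 CPM in the control group against 124 and 74.5 CPM in the deprived group. Control-317 was the lowest library in both, and Deprivated-326 was closer to the nearest control library than to Deprivated-316. Their log2 fold changes were 1.20 and 1.00, with standard errors of 0.41 and 0.39 (edgeR adjusted p = 0.466 and 0.509). Without Control-317 they were 0.91 and 0.75 (edgeR adjusted p = 0.0725 and 0.134, within a range of 0.0426 to 1.00 over the alternatives of CACNB1 and 0.0602 to 1.00 over those of CACNB3), and with Control-317 and Deprivated-316 exchanged they turned to -0.57 and -0.63. CACNB2, the main beta subunit of the heart and also found in brain, ran from 58.8 to 83.8 CPM with overlapping groups (log2 fold change 0.20).

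CACNB4, the beta subunit whose loss causes epilepsy and ataxia in the lethargic mouse, had the highest FPKM of them when averaged over the 5 libraries, at 21.2. The order differed between libraries, since CACNB4 was below CACNB2 in Control-317 (8.66 against 12.8 FPKM) and below CACNB3 and CACNB1 in Deprivated-316 (17.2 against 24.6 and 19.1 FPKM). CACNB4 had 393, 113 and 319 CPM in the control group against 230.8 and 315.97 CPM in the deprived group. Both deprived values lay inside the control range (log2 fold change -0.01, standard error 0.54). Control-317 thus had the lowest level of CACNB1, CACNB3 and CACNB4, and CACNB2 held 40.3% of the FPKM of the beta subunits there, against 15.7% to 18.7% in the other 4 libraries.

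The largest positive log2 fold change of the 20 tested genes was that of an alpha2delta subunit. CACNA2D1, the main binding partner of gabapentin and a receptor for thrombospondins in synapse formation, had 71.1, 116 and 92.7 CPM in the control group against 272 and 251 CPM in the deprived group. Both deprived libraries were well above the highest control library. The log2 fold change was 1.49 (standard error 0.26, unadjusted p = 0.00154, edgeR adjusted p = 0.281). CACNA2D1 was called under 4 of 15 alternatives, namely the exact test, DESeq2, the fit without Control-317 and the fit with side as a term, and its adjusted p ran from 3.67e-04 to 1.00 over them. Its log2 fold change stayed positive in all 15, from 0.34 with Control-317 and Deprivated-316 exchanged to 1.68 without Control-317. CACNA2D1 held 49.6%, 57.5% and 52.8% of the FPKM of the alpha2delta subunits in the control group and 73.3% and 75.8% in the deprived ones.

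CACNA2D2, an alpha2delta subunit of high level in Purkinje cells, ran from 33.8 to 52.7 CPM with overlapping groups (log2 fold change 0.24). CACNA2D3 had 12.003, 4.72 and 11.4 CPM in the control group against 12.1 and 3.96 CPM in the deprived group, so that the deprived libraries spanned the whole control range. Its log2 fold change was -0.22 by the labels. With Control-317 and Deprivated-316 exchanged it was -1.44 (edgeR unadjusted p = 0.0042, adjusted p = 0.697). CACNA2D4, known from the retina, reached at most 10.5 counts in a library and was not tested.

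**Figure D4:**
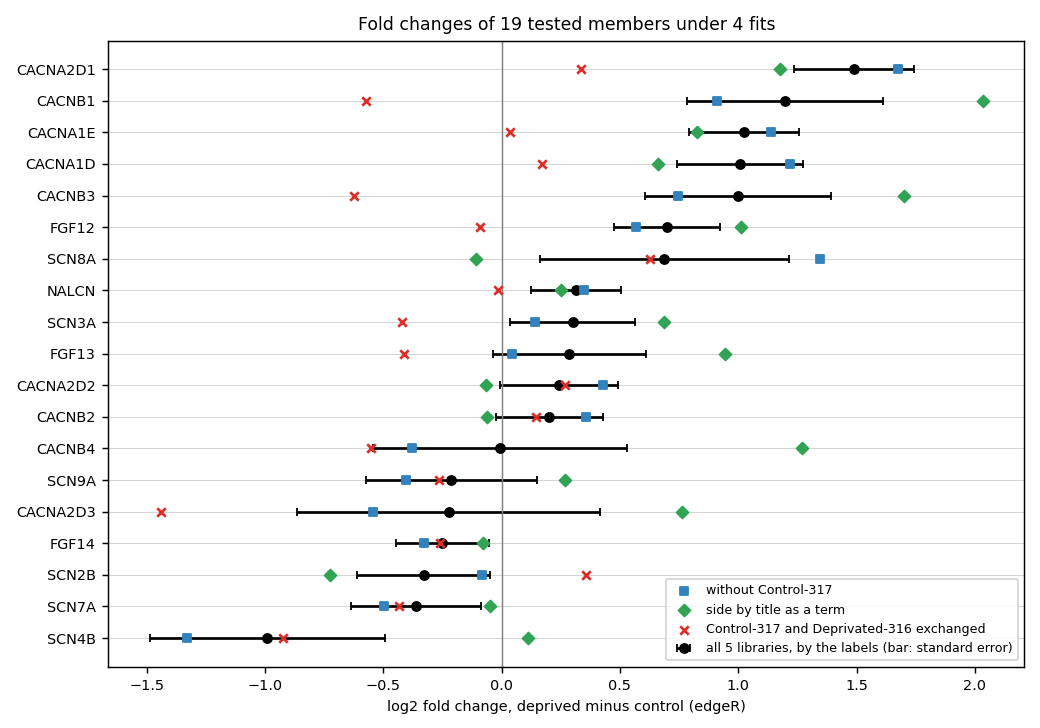
Log2 fold change (deprived minus control) of 19 tested genes, with CACNA1A left out because of its zeros; black points with bars are the fit to all 5 libraries with its standard error, and coloured symbols are the fits without Control-317, with side as a term and with Control-317 and Deprivated-316 exchanged. CACNA2D1, CACNA1E and CACNA1D stay to the right of 0 in all 4 fits, whereas CACNB1 and CACNB3 run from 2.03 and 1.70 with side as a term to -0.57 and -0.63 under the exchange.

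NALCN varied little. It had 121, 138 and 138 CPM in the control group against 179 and 151 CPM in the deprived group. The groups did not overlap, but the difference was small (log2 fold change 0.31 with a standard error of 0.19, edgeR adjusted p = 0.630), and it was -0.01 with Control-317 and Deprivated-316 exchanged.

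The FGF homologous factors did not move together. FGF12 had 211, 147 and 190 CPM in the control group against 301 and 292 CPM in the deprived group. The deprived values were close to each other and above every control value (log2 fold change 0.70 with a standard error of 0.22, edgeR adjusted p = 0.444). FGF12 was called without Control-317 and with side as a term (edgeR adjusted p = 0.04999 and 0.0408, against up to 1.00 over the alternatives), and its log2 fold change was -0.09 under the exchange. FGF13, also known to bind microtubules, averaged 33.6 FPKM, more than the others in all libraries but Control-317, where FGF14 had 18.6 FPKM against 18.4. FGF13 had 125, 62.5 and 109 CPM in the control group against 124 and 117 CPM in the deprived group. Only Control-317 stood apart (log2 fold change 0.29). FGF14, whose mutation causes a spinocerebellar ataxia in humans, had 132, 105 and 119 CPM in the control group against 106 and 93.4 CPM in the deprived group (log2 fold change -0.25 with a standard error of 0.20, edgeR adjusted p = 0.715). The shares of FGF12 and FGF14 in their summed FPKM went apart. FGF12 held 26.8%, 30.2% and 27.0% in the control group and 35.6% and 38.5% in the deprived ones, and FGF14 held 26.4%, 35.1% and 27.3% against 20.6% and 19.5%.

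Most listed genes have several RefSeq transcripts, and the estimated counts were also compared transcript by transcript. Of the 109 transcripts 31 were listed at 0 in every library and 63 were tested. With adjustment over all transcripts, edgeR called 0 of the 63 (0% of 33469), 3 had an unadjusted p under 0.05 (6.41% of all transcripts), and the exact test and DESeq2 each called 1, against 1.39% and 3.06% of the transcripts they tested. The 3 were CACNA2D1 variant X3, CACNA1E variant X10 and FGF12 variant X2. CACNA2D1 variant X3, which DESeq2 called, held 86.4% of the counts of its gene and had 47.8, 101 and 76.2 CPM in the control group against 251 and 222 CPM in the deprived group (log2 fold change 1.66 with a standard error of 0.36, edgeR adjusted p = 0.549). The total of CACNA2D1 was thus mainly that of 1 variant in every library. FGF12 variant X2, which the exact test called, was at 0 in the control group and at 13.7 and 28.8 counts in the deprived ones. It passed the filter on low counts only through the deprived libraries, so its direction and its call are no separate result. A 0 may also be a failed estimate, so no fold is given. The variant made up only 0.41% of the counts of FGF12.

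The 11 transcripts of CACNA1E were divided differently in each library. Variant X9 took the largest share over all libraries, with 62.5% of the counts of CACNA1E in Control-307 and 71.9% in Control-331, but 0 of 2153 counts in Control-317 (Wilson 95% upper bound 0.178%). In Deprivated-316 and Deprivated-326 it took 42.5% and 28.3%. Variant X10 had 17.5, 58.5 and 19.5 CPM in the control group against 120 and 102 CPM in the deprived group (log2 fold change 1.80 with a standard error of 0.61, edgeR adjusted p = 0.678), so that it, but not X9, was higher in both deprived libraries than in every control library. Under the exchange the log2 fold changes were 0.37 for CACNA2D1 variant X3 and 0.62 for CACNA1E variant X10, with larger standard errors of 0.81 and 0.96. These shares are StringTie's division of reads among overlapping transcripts, and intervals cover counting error only.

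In other genes too the division among transcripts went with the library. Of the counts of SCN3A, variant X1 held 45.3%, 1.8% and 35.9% in the control group and 18.3% and 25.8% in the deprived group. In Control-317, at 1.8% (Wilson 95% interval 1.17% to 2.61%), variant X5 led with 51.5%. Of the counts of FGF13, variant X1 held 3.1%, 63.8% and 15.3% in the control group and 23.6% and 48.2% in the deprived group. Control-317 and Deprivated-326, with the most FGF13 variant X1, also had the highest means of the relay markers, though PRKCD was lowest there. A link of this variant to relay neurons was not tested. The share of the gene's counts separated the labelled groups for 8 of the 98 transcripts whose gene had counts in every library, 5 with a higher and 3 with a lower share in the deprived group, where the same held for 13.2% of all such transcripts (7.38% higher and 5.85% lower). The listed genes thus did not exceed the background, and the shares are given as a description. In CACNB2 these were X1, at 55.2%, 31.7% and 47.7% against 26.9% and 16.6%, and X6. CACNB2 variant X6 held 14.0%, 27.3% and 7.0% of the counts of its gene in the control group and 43.9% and 41.3% in the deprived ones, and its level had a log2 fold change of 1.49 (edgeR adjusted p = 0.806). SCN8A was divided between variant X5 (51.6% of all its counts) and variant X1 (43.7%), and X1 led only in Control-317. Over all libraries a single transcript held 92.9% of the counts of SCN2B, 96.9% of CACNB1, 87.5% of CACNB3, 89.6% of NALCN and 93.9% of FGF14. CACNA1D was led by variant X13 (47.3%), CACNB2 by X1 (35.6%), CACNB4 by X1 (43.9%), CACNA2D2 by X1 (73.9%), CACNA2D3 by X3 (68.3%), FGF12 by X3 (69.1%) and SCN9A by X3 (56.9%). Variant X3 of CACNA2D3 also separated the groups, with 73.0% to 94.4% of a low total in control and less in both deprived libraries.

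**Figure D5:**
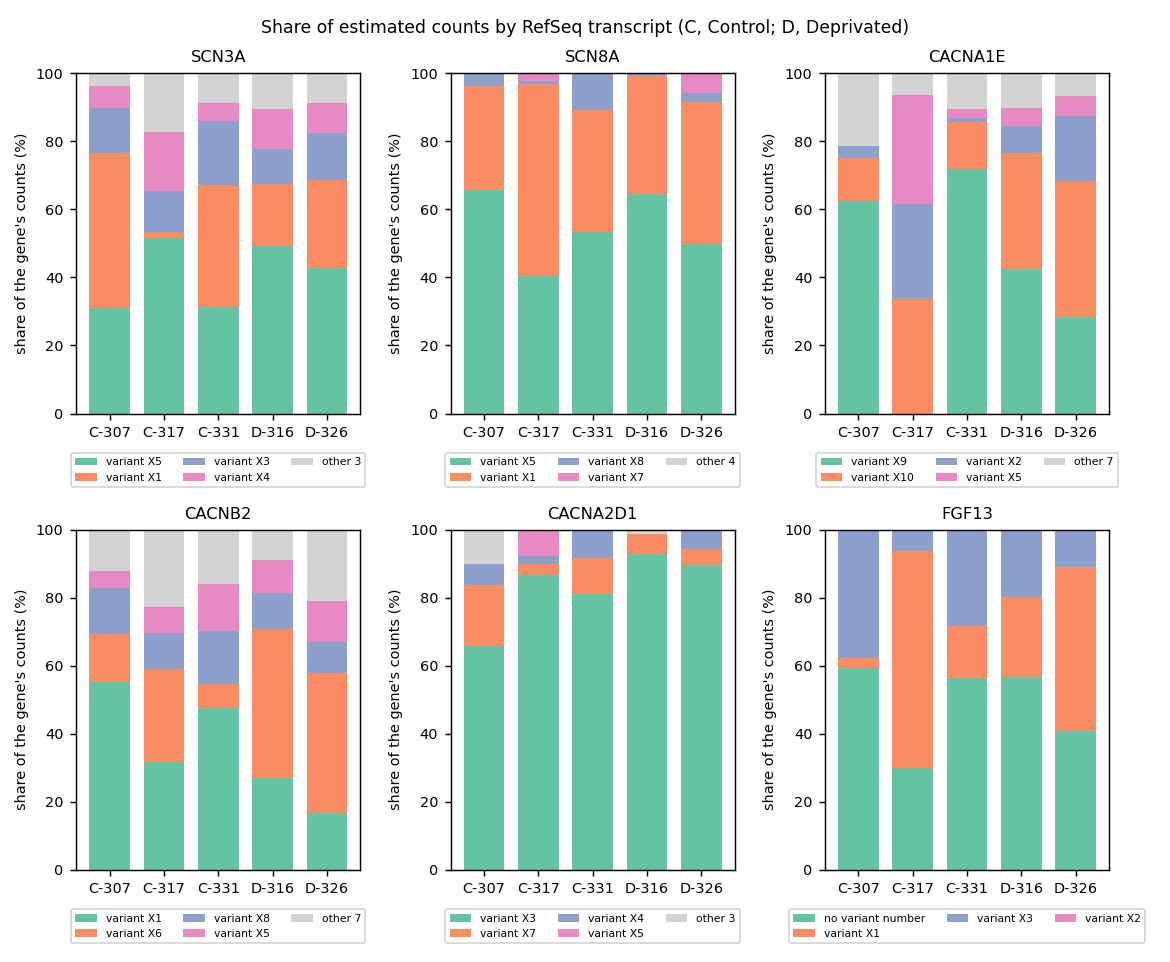
Share of each gene's estimated counts by RefSeq transcript in the 5 libraries (stacked bars, percent; the 4 leading transcripts in colour). CACNA1E variant X9 is missing in Control-317, SCN3A variant X1 is nearly missing there, and CACNB2 variant X6 is larger in both deprived libraries.

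Genes that anchor, assemble or tune these channels were mostly on the higher side by the labels. Of 39 listed partners 36 had rows and were tested, 27 of them with a positive log2 fold change (median 0.42), against 44.9% of all genes. None passed edgeR's test adjusted over all genes, and 6 had an unadjusted p under 0.05, 5 higher and 1 lower, where 5.69% of all genes were higher and 4.07% lower at that p. The groups did not overlap for 13 higher and 3 lower partners, against 15.2% and 15.5% of all genes. RIMBP2, which ties calcium channels to the release site, had 98.6, 104 and 91.3 CPM in the control group against 307.4 and 197.8 CPM in the deprived group (log2 fold change 1.36 with a standard error of 0.25, edgeR adjusted p = 0.287). CABP1, a calcium sensor that modulates calcium channels, was higher from a low level (2.28, 4.0 and 6.79 CPM in the control libraries, 40.9 and 22.2 CPM in the deprived ones). UNC79, a subunit of the NALCN complex, had a log2 fold change of 0.78, and SPTBN4, the spectrin of axon initial segments and nodes, one of 0.88. FGF11, the FGF homologous factor outside the listed genes, had 18.1, 16.3 and 17.4 CPM in the control group against 6.97 and 11.3 CPM in the deprived group (log2 fold change -0.92). Without Control-317 edgeR called 13 of the 36 partners as higher and 1 as lower, where 6.46% of all genes were called higher and 3.68% lower. With Control-317 and Deprivated-316 exchanged, 0 were called, 19 of the 36 were positive and the median was 0.09.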

How the data were processed

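The 5 dLGN libraries had been filtered with fastp 0.18.0 by the authors, aligned to Macaca_fascicularis_5.0 and quantified per library with StringTie 1.3.4. The study names HISAT2 as aligner, the processing notes Bowtie2 2.2.8. The deposited estimated counts of 62655 transcripts and the FPKM deposited by the authors for each library were used. Estimated counts were summed per symbol, rounded and tested with edgeR 4.0.16 (R 4.3.3), using TMM normalization, filterByExpr and the quasi-likelihood test. Standard errors belong to unshrunken coefficients, and 2 was the prior count behind log2 CPM. The threshold was an adjusted p of 0.05. Results were recomputed with DESeq2 1.42.0, with the exact test of edgeR, with limma 3.58.1 after taking log2(FPKM + 0.1) or log2(FPKM + 1), and with other size factors and filters, leaving out each library, side as a term, and the exchange of Control-317 and Deprivated-316. Each library is 1 animal, so p-values measure the spread between animals. Genes and lists were chosen with earlier results of these data known. All 31 genes are named. Values by library were given for genes with an unadjusted p under 0.05, without overlap, or leading their family per length, and for others of interest after their values were seen. Transcripts were named when leading their gene or, with an unadjusted p under 0.05, without overlap. The tests were tested on simulated counts. No sequence was used. No value column lay outside these samples. Values of some partner genes are not reported here. The exchange for the summed share, transcripts and partners was added after seeing the data.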

Additional observations from a re-analysis of the deposited data

How the results depend on the processing

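Under 15 alternatives, 262 of 300 log2 fold changes of the 20 tested genes kept their direction and their side of the threshold, and 25 turned in direction. The directions of SCN7A, CACNA1D, CACNA1E, CACNA2D1 and FGF14 held in all 15. The number of genes called, 0 in the main test, was 1 in the exact test, 2 in DESeq2, 4 with side as a term and 0 to 6 when 1 library was left out, with 6 without Control-317. The number of transcripts called was 1 in the exact test and 1 in DESeq2. The median log2 fold change was 0.67 with side as a term and -0.26 with Control-317 and Deprivated-316 exchanged, where 7 of 20 genes were higher. Leaving out 1 library gave 12 to 14 higher genes and medians of 0.19 to 0.38. With side as a term, values turned to -0.11 for SCN8A, 0.27 for SCN9A, 0.11 for SCN4B, 8.0 for CACNA1A, with its zeros, -0.062 for CACNB2, 1.27 for CACNB4, -0.066 for CACNA2D2 and 0.76 for CACNA2D3. Under the exchange they turned to -0.42 for SCN3A, 0.36 for SCN2B, -0.57 for CACNB1, -0.63 for CACNB3, -0.014 for NALCN, -0.091 for FGF12 and -0.41 for FGF13. CACNB4, at -0.01, turned to 0.003 in DESeq2, 0.004 with RLE size factors, 0.0985 and 0.0842 in limma with a pseudocount of 0.1 and 1. Leave-one-out ranges that crossed 0 were -8.17 to 0.95 for CACNA1A, -0.38 to 0.34 for CACNB4 and -1.24 to 0.38 for CACNA2D3. The causes were not tested. No paired analysis was possible because the animal numbers are not shared between the groups.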
